A study of Mus musculus with 4 samples.

Results

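The 10 genes described here encode transcription factors that set the identity of B cells or of plasma cells. They were chosen by name (Prdm1, Irf4, Irf8, Xbp1, Pax5, Bach2, Bcl6, Spib, Ets1 and Mitf), and all 10 were found among the 41342 named genes of the gene count table. Total RNA was sequenced from splenic B cells of mice with an altered IgH 3' regulatory region, the enhancer cluster downstream of the immunoglobulin heavy-chain genes. Homozygous ΔleftPAL mice lack the fragment that runs from hs3a through the inverted repeats (IRIS) to hs1,2. Homozygous ΔIRIS mice have the same fragment removed, but hs1,2 and an inverted hs3a were put back, so that only the repeats on that side are missing. Both lines are in a 129 background and were made in the E14 embryonic stem cell line with a neo cassette later deleted by cre. None of the 10 genes was targeted, and wt libraries were not analysed here. The mice behind the sequenced RNA were young adult males, as the study describes them.

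For each genotype 1 library came from freshly isolated CD43-depleted splenocytes, called resting here, and 1 from such cells cultured for 48 h with 5 µg per ml of LPS, the bacterial lipopolysaccharide that activates B cells through TLR4. No cells cultured without LPS were analysed, so the effects of LPS and of culture cannot be told apart. Each library holds RNA of several mice, whose pooling is described in different ways (equal cell numbers of 4 animals in the labels), and stands for its group alone. No difference below has a replicate check. The intervals given are 95% exact Clopper-Pearson intervals on the reads of pairs of libraries. They compare libraries rather than conditions and account for the counting of reads alone. Copies made by PCR are counted as if they were separate molecules.

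PAX5, BACH2, BCL6, SPIB, ETS1 and IRF8 hold a mature B cell in its state or open the germinal centre programme. BLIMP-1 (the product of Prdm1), XBP1 and high levels of IRF4 drive the step to the antibody-secreting plasma cell. The groups oppose each other: BLIMP-1 represses Pax5 and Bcl6, BCL6 and BACH2 repress Prdm1, and MITF restrains Irf4 in resting B cells. LPS culture of splenic B cells is a classical way to induce this step in part of the cells.

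The reads assigned to named genes numbered between 23615496 and 29776108 per library, and the floor of 3 reads corresponded to between 0.101 and 0.127 CPM (reads scaled to a common library size with TMM factors). Of the 10 factors, 10 had a mean of at least 50 reads over the 4 libraries, the minimum that 11286 genes passed. The B cell label was met, since all 7 B cell markers were detected in each library, at a sum of 3921 to 4771 CPM at rest and of 2455 to 2508 CPM after LPS. Transcripts of other cells were far more abundant in the resting libraries. The 5 erythroid markers summed to 34182 CPM in resting ΔleftPAL cells and to 23816 CPM in resting ΔIRIS cells, against 50.9 and 107 CPM after LPS. The 7 monocyte and macrophage markers summed to 599 and 789 CPM at rest and to 14.996 and 20.197 CPM after LPS, and the 6 T cell markers to 20.7 and 25.4 CPM at rest and to 0.260 and 0.0682 CPM after LPS. At rest the T cell markers did not share a direction. Cd4 (11.2 and 17.1 CPM) and Cd8a (3.44 and 6.95 CPM) were higher in ΔIRIS cells. Cd3e (17 and 5 reads), Cd3d (47 and 18), Cd3g (50 and 11) and Cd247 (34 and 6) were lower there. After LPS the T cell genes Cd3e, Cd3d and Cd3g had 0 reads in both libraries, and Csf1r, the receptor that defines macrophages, had 0.297 and 0.171 CPM. Not every such marker was lower: Itgam, of the monocyte and macrophage list, went from 13.1 to 5.20 CPM in ΔleftPAL but from 10.5 to 15.4 CPM in ΔIRIS cells, and Flt3, of the dendritic list, from 17.8 to 45.3 and from 26.1 to 36.0 CPM. Sums of the dendritic cell markers were 67.2 and 110 CPM at rest and 48.7 and 37.5 CPM after LPS, and those of the NK, neutrophil and mast cell markers stayed below 10 CPM. The sum of the 6 plasma cell markers moved the other way, from 280 to 931 CPM in ΔleftPAL cells and from 226 to 612 CPM in ΔIRIS cells. Most of this sum was Igj and Mzb1, and Sdc1 went from 12.7 to 17.9 CPM in ΔleftPAL but from 17.9 to 13.2 CPM in ΔIRIS cells. Several of the 10 factors are also expressed in monocytes, macrophages, dendritic cells or T cells, and the part of such cells in the results below was not tested. In bulk RNA, fewer cells of a type and less RNA per cell cannot be told apart.

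Sequence upstream of annotated start sites is shown for 3 of the genes: Irf4 as the factor that differed most between the resting libraries, Prdm1 as the factor with the largest change on LPS, and Bach2. For Bach2 it is the start of the transcript to which kallisto assigned most of the estimated counts in LPS-activated ΔIRIS cells (27.0% by TPM). Whether transcription began at that start was not tested. The sequences are those of RefSeq on GRCm38.p6, whose coordinates are those of mm10, read 5′ to 3′ on the strand of the gene. The windows are chr13:30748983-30749225 on the plus strand for Irf4, chr10:44458749-44458998 on the minus strand for Prdm1, and chr4:32417185-32417434 on the plus strand for Bach2. The capitals mark TATAAA in Irf4, TGANTCA (an AP-1 type site) in Prdm1 and, on the opposite strand, GGAANNGAA (an ETS-IRF composite) in Bach2.
Irf4: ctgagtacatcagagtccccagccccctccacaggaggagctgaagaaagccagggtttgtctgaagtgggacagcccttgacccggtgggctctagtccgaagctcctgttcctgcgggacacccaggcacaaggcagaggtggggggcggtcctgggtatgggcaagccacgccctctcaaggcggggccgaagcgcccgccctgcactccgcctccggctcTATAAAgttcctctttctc
Prdm1: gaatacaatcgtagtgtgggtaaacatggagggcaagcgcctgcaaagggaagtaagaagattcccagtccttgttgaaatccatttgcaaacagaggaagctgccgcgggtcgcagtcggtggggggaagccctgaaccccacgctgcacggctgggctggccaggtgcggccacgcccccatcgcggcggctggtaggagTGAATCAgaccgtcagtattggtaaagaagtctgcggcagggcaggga
Bach2: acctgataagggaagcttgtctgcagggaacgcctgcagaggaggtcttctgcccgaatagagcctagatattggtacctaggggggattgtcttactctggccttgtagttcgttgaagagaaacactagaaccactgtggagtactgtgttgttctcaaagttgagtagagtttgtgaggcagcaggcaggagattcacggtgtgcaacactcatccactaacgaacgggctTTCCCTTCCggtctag

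RefSeq windows were found for 9 of the 10 genes, 13 windows in all, and 7 short motifs were searched on both strands of the 250 bases upstream of each start. Positions are counted from the RefSeq start, with the base before it as -1. TATAAA lay at -26 of Irf4, at -31 of Irf8 and at -175 of 1 start of Mitf, and 12.4% of 32851 windows of the same length held it. TGANTCA lay at -48 of Prdm1, a motif found in 6.75% of windows. GGAANNGAA lay at -16 of the downstream start of Bach2, a place that is also the end of an intron of the longer transcript Bach2-202, next to its splice acceptor, and at -28 of 1 start of Bcl6, against 6.99% of windows. TGACGT, part of the CRE that binds CREB and ATF factors, was found upstream of Bcl6 and of Mitf (6.47% of windows). GGGANTTCC (an NF-κB type site, 1.43% of windows), GAAANNGAA (an IRF pair, 7.13%) and the octamer ATGCAAAT (1.60%) were not in these windows of the 9 genes. A match of letters is a description of the window and shows no binding.

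The question of the first comparison is what LPS culture does to the factors in each genotype. A gene was counted as higher or lower when the libraries were at least 2-fold apart on log2(CPM + 0.5), a scale that understates the change of low genes. In ΔleftPAL cells 2 of the 10 factors were higher after LPS (Prdm1 and Xbp1) and 4 were lower (Bach2, Bcl6, Ets1 and Mitf), against 20.1% and 15.5% of all genes tested. In ΔIRIS cells the same 2 were higher and the same 4 lower, against 21.6% and 17.3% of all genes. Calls near the mark depended on the processing: Bach2 fell short of 2-fold with kallisto estimated counts (-0.999 and -0.94), Mitf did with a prior of 5 CPM (-0.47 and -0.65), and Spib passed it in ΔleftPAL cells with upper quartile factors (-1.08) and in TPM (-1.15). The median log2 ratio of the 10 factors was -0.69 in ΔleftPAL cells and -0.61 in ΔIRIS cells, and that of all genes 0.12 and 0.13. The share of factors that were higher was thus close to that of all genes, and the share that were lower was larger.

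**Figure D1:**
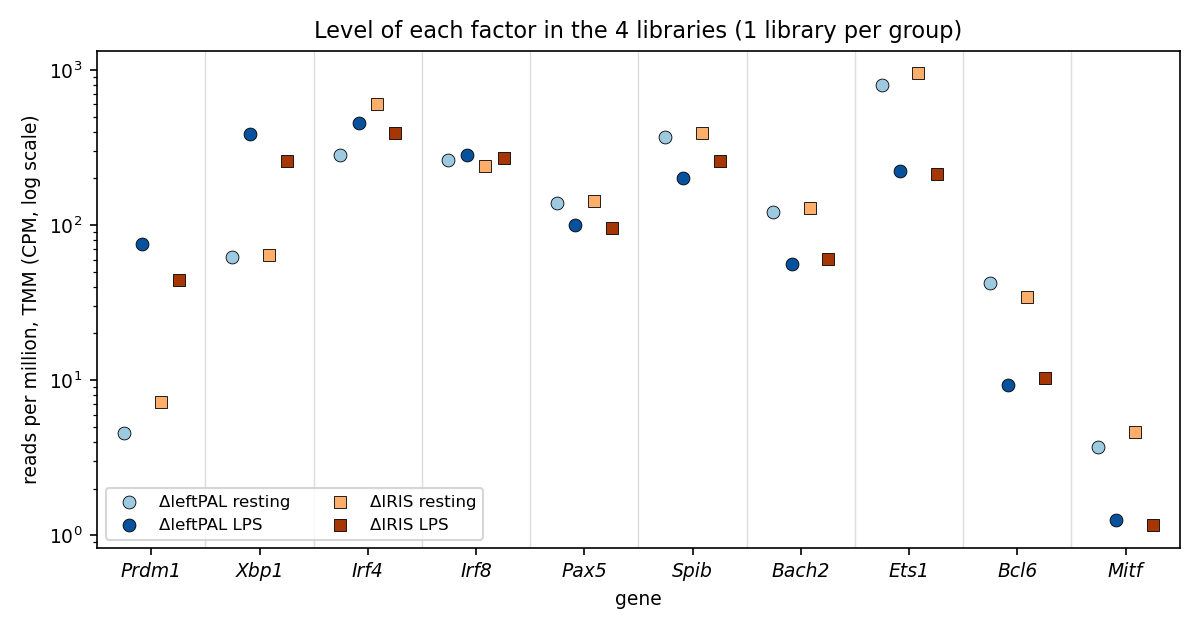
Level of the 10 factors in the 4 libraries, as CPM with TMM factors on a log axis, with circles for ΔleftPAL and squares for ΔIRIS, pale for resting and dark for LPS. Prdm1 and Xbp1 lie higher in both LPS libraries, Bach2, Bcl6, Ets1 and Mitf lie lower, and Irf4 is highest in resting ΔIRIS cells at 604 CPM.

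Prdm1, the gene of BLIMP-1 (ENSMUSG00000038151, chr10:44437177-44528501, minus strand, mm10), had 111 reads in resting ΔleftPAL cells and 2047 once they were LPS-activated. The matching ΔIRIS values were 210 and 1288 reads. These are 4.54 and 76.0 CPM in ΔleftPAL cells and 7.22 and 43.9 CPM in ΔIRIS cells. Both LPS libraries lay far above both resting libraries, and the genotypes changed places between the states. The log2 ratio of LPS over resting was 4.06 (3.79 to 4.35) in ΔleftPAL cells, a 16.7-fold difference above that of 99.7% of genes. It was 2.60 (2.39 to 2.82) in ΔIRIS cells, a 6.08-fold difference above that of 97.0% of genes. Prdm1-201 held 62.8% and Prdm1-202 35.6% of its kallisto estimated counts in resting ΔleftPAL cells, and 46.4% and 48.8% after LPS. In ΔIRIS cells the same shares were 54.8% and 41.6% at rest, and LPS gave 49.98% and 47.2%, so Prdm1-201 had the lower share after LPS in both genotypes, from 111 and 210 reads at rest.

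Xbp1 (ENSMUSG00000020484, chr11:5520659-5525893, plus strand) encodes the factor that expands the secretory pathway once its messenger has been spliced by IRE1. It had 1511 reads (61.9 CPM) in resting and 10492 (389 CPM) in LPS-activated ΔleftPAL cells. In ΔIRIS cells it had 1873 reads (64.4 CPM) at rest and 7614 (260 CPM) after LPS. The resting libraries differed by less than counting error, and both LPS libraries were higher, that of ΔleftPAL more so. The log2 ratio of LPS over resting was 2.65 (2.58 to 2.73) in ΔleftPAL cells, 6.30-fold, and 2.01 (1.94 to 2.09) in ΔIRIS cells, 4.03-fold. The shortest intron of the Xbp1 transcripts in the kallisto index has 300 bases, so the much shorter segment removed by IRE1 was not resolved, and these values are of Xbp1 messenger of either form.

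Irf4 (ENSMUSG00000021356, chr13:30749226-30766927, plus strand), whose product acts at low dose in activated B cells and at high dose in plasma cells, had 6959 reads in resting ΔleftPAL cells and 12348 once they were LPS-activated. The matching ΔIRIS values were 17554 and 11495 reads. Its levels were 285 and 458 CPM in ΔleftPAL cells and 604 and 392 CPM in ΔIRIS cells. The resting ΔIRIS library was the highest of the 4 and the resting ΔleftPAL library the lowest, with both LPS libraries between them. The log2 ratio of LPS over resting was 0.69 (0.64 to 0.73) in ΔleftPAL cells and -0.62 (-0.66 to -0.59) in ΔIRIS cells, opposite in sign. Irf4 thus passed the 2-fold mark in neither genotype. The 2 Irf4 transcripts of the index, of 4715 and 4712 bases, differ too little for their shares to be read.

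Irf8 (ENSMUSG00000041515, chr8:120736358-120756694, plus strand), which works with PU.1 and SPIB in B cells and also serves myeloid cells, stayed within a narrow range. It had 6429 reads (263 CPM) in resting and 7579 (281 CPM) in LPS-activated ΔleftPAL cells, and 6994 (241 CPM) and 7991 (273 CPM) in ΔIRIS cells. Its log2 ratio of LPS over resting was 0.10 (0.05 to 0.14) and 0.18 (0.13 to 0.23) in the respective genotypes. The sign of these small values depended on the scaling: with upper quartile factors the ratio of ΔleftPAL was -0.089, and in TPM both ratios were below 0, at -0.19 and -0.11.

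Pax5 (ENSMUSG00000014030, chr4:44531145-44710487, minus strand), the factor that commits cells to the B lineage, had 3414 reads (140 CPM) in resting and 2681 (99.5 CPM) in LPS-activated ΔleftPAL cells. In ΔIRIS cells it had 4175 reads (144 CPM) at rest and 2788 (95.1 CPM) after LPS. Both LPS libraries were lower than both resting libraries, by less than 2-fold. The log2 ratios were -0.49 (-0.56 to -0.42) in ΔleftPAL and -0.59 (-0.66 to -0.52) in ΔIRIS cells.

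Spib (ENSMUSG00000008193, chr7:44525995-44532071, minus strand), an ETS factor close to PU.1 that is expressed in lymphoid cells and plasmacytoid dendritic cells, had 9096 reads (372 CPM) in resting and 5385 (200 CPM) in LPS-activated ΔleftPAL cells. In ΔIRIS cells it had 11384 reads (392 CPM) at rest and 7598 (259 CPM) after LPS. The log2 ratios were -0.90 (-0.95 to -0.85) and -0.60 (-0.64 to -0.55), again short of 2-fold.

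Ets1 (ENSMUSG00000032035, chr9:32636221-32757820, plus strand), which restrains plasma cell differentiation and is also abundant in T cells, had 19581 reads (802 CPM) in resting and 5972 (222 CPM) in LPS-activated ΔleftPAL cells. In ΔIRIS cells it had 27679 reads (952 CPM) at rest and 6269 (214 CPM) after LPS. It had the most reads of the 10 factors in both resting libraries, and was 3.62-fold lower after LPS in ΔleftPAL cells and 4.45-fold lower in ΔIRIS cells. The log2 ratios were -1.85 (-1.90 to -1.81) and -2.15 (-2.19 to -2.11). The T cell markers were lower after LPS as well: the reads of all 6 numbered 505 at rest and 7 after LPS in ΔleftPAL cells and 738 and 2 in ΔIRIS cells, with Cd4 the highest at 11.2 and 17.1 CPM at rest. Between the resting libraries Cd4 and Cd8a were higher in ΔIRIS cells, as Ets1 was. Cd3e (5 against 17 reads), Cd3d (18 against 47), Cd3g (11 against 50) and Cd247 (6 against 34) were lower in ΔIRIS cells. The part of T cells in the change of Ets1 was not tested.

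Bcl6 (ENSMUSG00000022508, chr16:23965052-23988852, minus strand), the repressor that defines germinal centre B cells, had 1034 reads (42.3 CPM) in resting and 249 (9.24 CPM) in LPS-activated ΔleftPAL cells. In ΔIRIS cells it had 1003 reads (34.5 CPM) at rest and 301 (10.3 CPM) after LPS. It was 4.58-fold lower after LPS in ΔleftPAL cells (log2 ratio -2.20, interval -2.40 to -1.99) and 3.36-fold lower in ΔIRIS cells (log2 ratio -1.75, interval -1.94 to -1.56). Of 6 germinal centre markers, 4 had a ratio below 0 on LPS in ΔleftPAL cells (45.6% of all genes did) and 2 in ΔIRIS cells (44.9%), and the others were above 0. The part of germinal centre cells in the change of Bcl6 was not tested.

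Mitf (ENSMUSG00000035158, chr6:97807058-98021349, plus strand), better known from melanocytes, was the lowest of the 10 factors. It had 90 reads (3.68 CPM) in resting and 34 (1.26 CPM) in LPS-activated ΔleftPAL cells, and 135 (4.64 CPM) and 34 (1.16 CPM) in ΔIRIS cells. The log2 ratios were -1.55 (-2.16 to -0.96) and -2.00 (-2.59 to -1.45), with wide intervals at this depth. Most of its estimated counts fell on Mitf-202, which starts at the most upstream of its starts: 83.9% in resting ΔleftPAL cells, 100% in LPS-activated ΔleftPAL cells and resting ΔIRIS cells, and 97.6% in LPS-activated ΔIRIS cells. By TPM Mitf-202 held 64.1% in resting ΔleftPAL cells, where Mitf-201, with a start further downstream, held 28.4%. MITF is also a factor of macrophages, whose markers had lower sums after LPS (Itgam was higher in ΔIRIS cells), and their part in the change of Mitf was not tested.

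**Figure D2:**
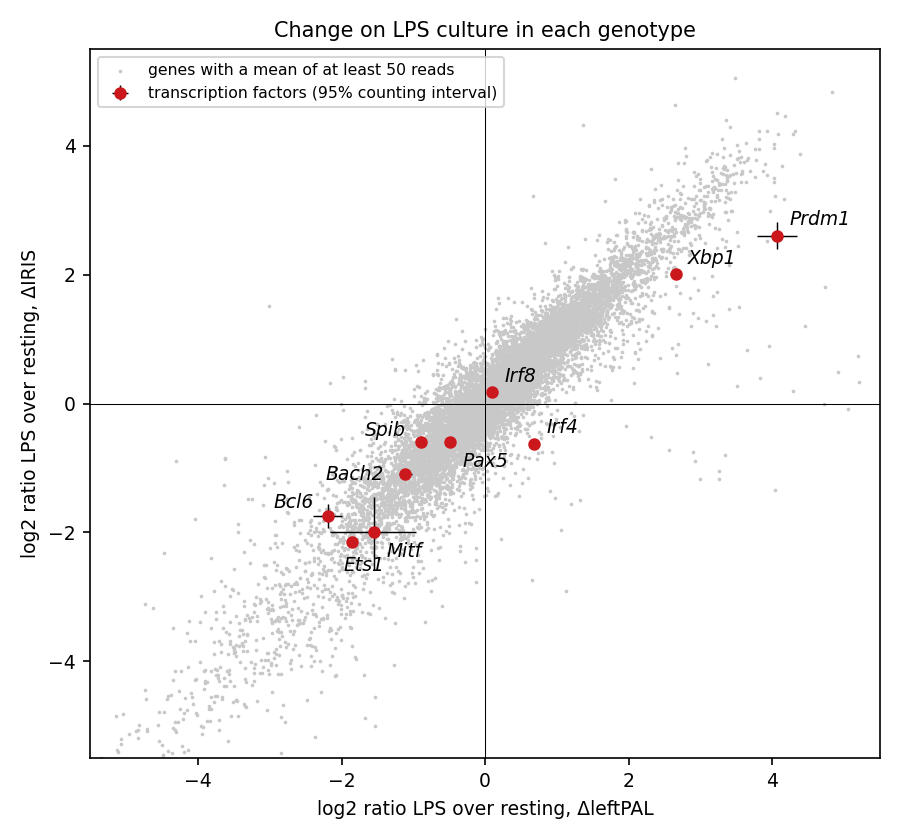
Log2 ratio of LPS over resting in ΔleftPAL (horizontal axis) and in ΔIRIS cells (vertical axis), with the 10 factors in red with 95% counting intervals and the 11286 genes tested in grey, of which 73 lie outside the axes. Irf4 lies below the horizontal line and right of the vertical one (0.69 and -0.62), and Prdm1 is the factor farthest to the right at 4.06.

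Bach2 (ENSMUSG00000040270, chr4:32238804-32586108, plus strand), a repressor of Prdm1, had 2959 reads (121 CPM) in resting and 1508 (56.0 CPM) in LPS-activated ΔleftPAL cells. In ΔIRIS cells it had 3752 reads (129 CPM) at rest and 1771 (60.4 CPM) after LPS. The log2 ratios of LPS over resting were nearly the same, -1.11 (-1.20 to -1.02) in ΔleftPAL and -1.09 (-1.18 to -1.01) in ΔIRIS cells. In TPM they were larger, at -1.87 in ΔleftPAL and -1.92 in ΔIRIS cells. Beneath these similar changes of the gene in both genotypes the transcripts differed. Of the 7 Bach2 transcripts in the kallisto index, 4 begin at the upstream end of the gene, 1 begins at 32417435, downstream of the window printed above, and 2 are internal fragments. The upstream transcripts took 83.1% of the estimated counts of Bach2 in resting ΔleftPAL and 84.7% in resting ΔIRIS cells, against 45.3% and 26.2% after LPS. The downstream transcript took 13.0% and 12.8% at rest and 48.3% and 68.3% after LPS. In estimated counts, the upstream transcripts went from 2527 to 700 in ΔleftPAL and from 3257 to 474 in ΔIRIS cells, whereas the downstream transcript went from 396 to 747 and from 491 to 1235. Scaled to the library, the upstream transcripts were 3.67-fold lower after LPS in ΔleftPAL and 6.203-fold lower in ΔIRIS cells, and the downstream transcript was 1.86-fold and 2.78-fold higher. After LPS the ΔIRIS library held 1.60-fold more of the downstream transcript and 1.53-fold less of the upstream ones than the ΔleftPAL library.

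These shares rest on little sequence. All 5 exons of the downstream transcript begin where exons of the longest upstream transcript (Bach2-202, 7 exons) begin, so the transcripts are told apart mainly by reads over the 2 exons before the downstream start, 393 bases in all, and how even the coverage was along the gene was not tested. By TPM, which divides by length, the downstream transcript took 2.66% and 3.42% at rest and 14.1% and 27.0% after LPS. The direction held in both genotypes under either unit, with short internal fragments taking more of the TPM.

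**Figure D3:**
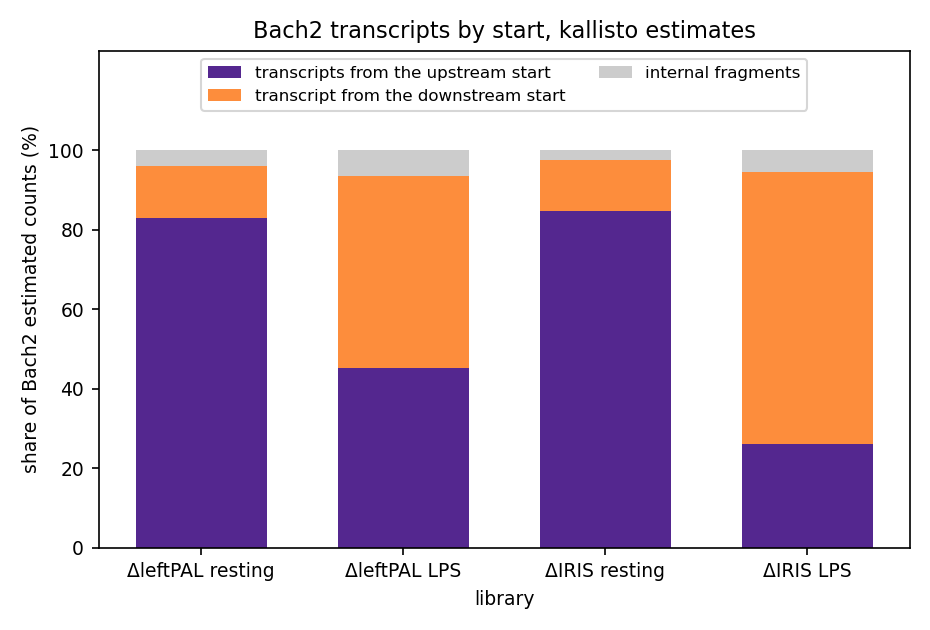
Share of the kallisto estimated counts of Bach2 (percent, stacked bars, 1 bar per library) that fell on transcripts from the upstream start, on the transcript from the downstream start and on internal fragments. The downstream share is 13.0% and 12.8% in the resting libraries and 48.3% and 68.3% in the LPS libraries of ΔleftPAL and ΔIRIS.

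The question of the second comparison is whether the genotypes differ at the same state. At rest, the level in ΔIRIS cells was at least 2-fold above that in ΔleftPAL cells for 1 of the 10 factors and 2-fold below it for 0, against 1.83% and 1.02% of all genes tested. After LPS 0 were higher and 0 were lower, against 0.567% and 1.41%. The median log2 ratio of the factors was 0.08 at rest and -0.06 after LPS, and that of all genes 0.00 and 0.03.

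The factor that differed at rest was Irf4, with a log2 ratio of 1.08 (1.04 to 1.12), 2.12-fold, above that of 98.5% of genes. After LPS its ratio was -0.22 (-0.26 to -0.19), 1.17-fold lower in ΔIRIS cells. Prdm1 also lay on opposite sides, at 0.67 (0.33 to 1.01) at rest, from 210 against 111 reads, and at -0.79 (-0.89 to -0.69) after LPS, 1.73-fold lower in ΔIRIS cells and below the ratio of 97.6% of genes. Xbp1 showed a difference after LPS, with a ratio of -0.58 (-0.63 to -0.54), 1.499-fold lower in ΔIRIS cells, whereas its ratio at rest was 0.06 (-0.04 to 0.16). Prdm1, Irf4 and Xbp1 were thus lower in LPS-activated ΔIRIS than in LPS-activated ΔleftPAL cells, each by less than 2-fold. The 10 other factors of the plasma cell side that were followed did not share a direction, with 5 above 0 and 5 below. Of the plasma cell markers, the 5 past the minimum were lower in the same library, among them Igj at 283 against 501 CPM, Mzb1 at 287 against 372 CPM, Derl3 at 21.8 against 29.9 CPM and Sdc1, which encodes CD138, at 13.2 against 17.9 CPM. At rest these 5 markers did not share a direction: Igj (155 against 188 CPM), Mzb1 (49.3 against 73.6 CPM) and Fkbp11 (20 against 43 reads) were lower in ΔIRIS cells, Sdc1 was higher (17.9 against 12.7 CPM), and the counting interval of Derl3 included 0. The part of the number of plasma cells in these differences was not tested.

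Among the factors of the B cell side the differences between genotypes were small. Spib had a log2 ratio of 0.07 (0.03 to 0.11) at rest and of 0.37 (0.32 to 0.43) after LPS, above that of 94.5% of genes. Bcl6 had -0.30 (-0.42 to -0.17) at rest and 0.15 (-0.10 to 0.40) after LPS. Ets1 had 0.25 (0.22 to 0.27) at rest and -0.05 (-0.10 to -0.0003) after LPS. The latter interval included 0 with total counts, DESeq2 size factors or upper quartile factors. Irf8 had -0.13 (-0.18 to -0.08) and -0.05 (-0.09 to 0.0002), the latter -0.07 (-0.12 to -0.02) with TMM factors taken without immunoglobulin genes. Pax5 had 0.04 (-0.03 to 0.10) at rest and -0.07 (-0.14 to 0.01) after LPS, intervals that include 0, and with TMM factors taken without immunoglobulin genes the latter was -0.09 (-0.17 to -0.01). Bach2 had 0.09 (0.02 to 0.16) and 0.11 (0.01 to 0.21), and in TPM its ratios were -0.33 and -0.38, so its direction depended on the table. Mitf had 0.33 (-0.06 to 0.73) at rest and -0.12 (-0.85 to 0.61) after LPS, from 34 reads in each LPS library.

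**Figure D4:**
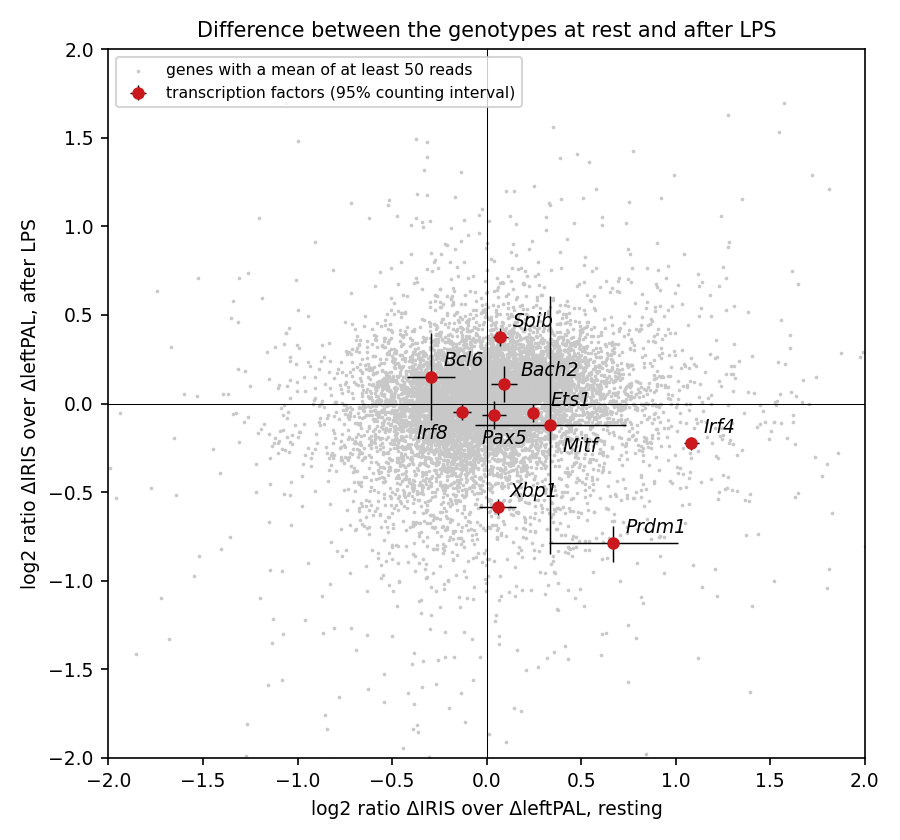
Log2 ratio of ΔIRIS over ΔleftPAL at rest (horizontal axis) and after LPS (vertical axis), with the 10 factors in red with 95% counting intervals and the 11286 genes tested in grey, of which 66 lie outside the axes. Irf4 stands at 1.08 at rest, Prdm1 and Xbp1 are the lowest of the factors after LPS at -0.79 and -0.58, and Pax5, Bach2 and Irf8 lie near 0 on both axes.

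The difference between the genotypes in the change on LPS combines all 4 libraries. As log2 change in ΔIRIS minus log2 change in ΔleftPAL cells, it was -1.46 (-1.82 to -1.10) for Prdm1, -1.31 (-1.36 to -1.25) for Irf4 and -0.64 (-0.75 to -0.54) for Xbp1. Only 1.61% of genes had a value below that of Prdm1, 1.94% below that of Irf4 and 8.20% below that of Xbp1. At the other end stood Bcl6 with 0.45 (0.17 to 0.73) and Spib with 0.30 (0.24 to 0.37), and Ets1 had -0.30 (-0.36 to -0.24). The value was -0.10 (-0.21 to -0.003) for Pax5, 0.08 (0.02 to 0.15) for Irf8, 0.02 (-0.10 to 0.14) for Bach2 and -0.46 (-1.29 to 0.39) for Mitf. Over all genes the median was 0.01, and 570 genes (5.05%) differed by at least 1 on this scale. Irf4 was among 30 genes that were higher by at least 0.5 in ΔleftPAL and lower by at least 0.5 in ΔIRIS cells. For Irf4 this rested mainly on the resting libraries, which were 2.12-fold apart, whereas the LPS libraries were 1.17-fold apart.

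Levels of different genes were compared per length, as CPM per kb of exon. At rest Spib led in ΔleftPAL cells with 131, followed by Ets1 with 94.6, Irf4 with 60.4, Pax5 with 56.7 and Irf8 with 37.3, and Prdm1 stood at 0.827 and Mitf at 0.593. In resting ΔIRIS cells Spib had 138, Irf4 128 and Ets1 112, which moved Irf4 from the third to the second place. After LPS Xbp1 led in ΔleftPAL cells with 120, ahead of Irf4 with 97.2 and Spib with 70.4. In LPS-activated ΔIRIS cells Spib led with 91.3, ahead of Irf4 with 83.2 and Xbp1 with 79.98. Prdm1 reached 13.8 and 8.001 after LPS, where Bach2 had 5.63 and 6.08 in the same libraries. By kallisto TPM the order at rest in ΔleftPAL cells was headed by Ets1 with 258, Spib with 169 and Irf8 with 146, and Irf4 came sixth with 76.7. By TPM after LPS, Xbp1 led in both genotypes with 238 and 153, ahead of Irf8 with 128 and 117, and Bach2 stood above Prdm1 (24.9 against 23.8 in ΔleftPAL and 19.2 against 12.1 in ΔIRIS cells). The order of levels thus depended on the table, for Irf4, Irf8, Spib, Bach2 and Prdm1 among others.

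Ratios of opposing factors within a library need no scaling between libraries. Per kb, Prdm1 stood to Bach2 as 0.0679 at rest and 2.46 with LPS in ΔleftPAL cells, and as 0.101 and 1.32 in ΔIRIS cells, so that Prdm1 exceeded Bach2 after LPS by this measure. The change of this ratio in gene reads was 36.2-fold in ΔleftPAL and 13.0-fold in ΔIRIS cells. By TPM Prdm1 stayed below Bach2 and the change was larger, from 0.0157 to 0.956 in ΔleftPAL and from 0.0336 to 0.630 in ΔIRIS cells. Prdm1 to Bcl6 went from 0.131 to 10.0 in ΔleftPAL and from 0.255 to 5.22 in ΔIRIS cells, 76.6-fold and 20.4-fold. Pax5 remained above Prdm1 in every library, with Prdm1 to Pax5 at 0.0146 and 0.343 in ΔleftPAL and at 0.0226 and 0.207 in ΔIRIS cells. Xbp1 to Pax5 crossed from 0.336 to 2.97 in ΔleftPAL and from 0.340 to 2.07 in ΔIRIS cells. Irf4 to Irf8 was 1.62 at rest and 2.44 after LPS in ΔleftPAL cells, but in ΔIRIS cells it was 3.76 at rest and 2.15 after LPS. The log2 change of this ratio was 0.59 (0.53 to 0.65) and -0.80 (-0.86 to -0.75). The ETS pair Spib to Ets1 went from 1.39 to 2.69 and from 1.23 to 3.62. By TPM Irf4 to Irf8 was 0.525 and 0.834 in ΔleftPAL and 1.29 and 0.761 in ΔIRIS cells, so on which side of 1 a pair lay depended on the table, while the changes on LPS had the same directions.

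**Figure D5:**
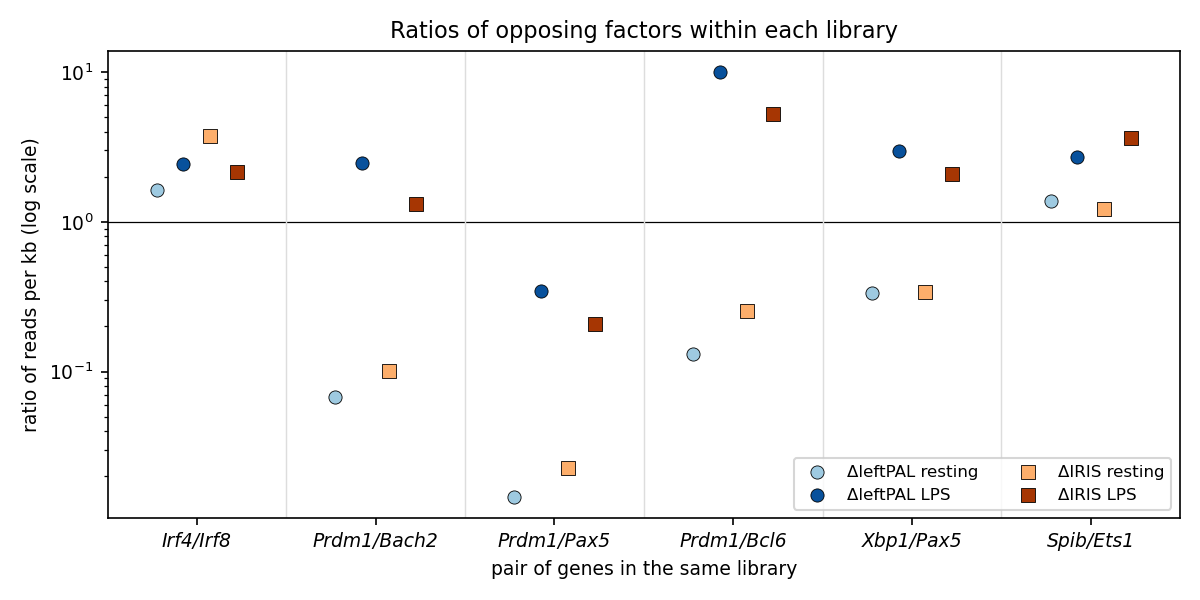
Ratio of reads per kb of 6 pairs of factors within each library, on a log axis, with circles for ΔleftPAL and squares for ΔIRIS, pale for resting and dark for LPS. The line marks a ratio of 1, which Prdm1/Bcl6 and Xbp1/Pax5 cross upward after LPS in both genotypes and Prdm1/Bach2 crosses per kb but not by TPM, whereas Irf4/Irf8 goes from 1.62 to 2.44 in ΔleftPAL and from 3.76 to 2.15 in ΔIRIS.

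The genes whose pattern over the 4 libraries was nearest to that of a factor were taken by the Euclidean distance of centred log2(CPM + 0.5), a description over 4 values that share their libraries. Nearest to Prdm1 were Rhpn2, Amigo2, Cldn12, Dusp14 and H2afx, at distances of 0.42 to 0.54. Nearest to Irf8 were Smarcal1, Rnf25, Nsun4, Txndc12 and Zbtb40, at 0.014 to 0.040, and nearest to Pax5 were Mark4, Mapk7, Daglb, Itgav and Bbs9, at 0.022 to 0.042. Patterns with small changes, such as those of Irf8 and Pax5, had close neighbours, and the steep pattern of Prdm1 had none as close.

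Genes known to be controlled by these factors, and other factors of the same cells, were followed as lists, by counts at the 2-fold mark and without a test. The counts after LPS stand against 20.1% of all genes higher and 15.5% lower in ΔleftPAL cells, and 21.6% and 17.3% in ΔIRIS cells. Counts of ΔIRIS over ΔleftPAL cells stand against 1.83% of all genes higher and 1.02% lower at rest, and 0.567% and 1.41% after LPS. Of 20 secretory pathway genes that XBP1 activates, 14 were higher and 0 lower after LPS in ΔleftPAL cells, and 12 were higher and 1 lower in ΔIRIS cells, with median log2 ratios of 1.54 and 1.21. Sec24d, a COPII coat subunit, had 5.16 and 40.01 CPM in ΔleftPAL and 6.81 and 33.1 CPM in ΔIRIS cells. Sdf2l1, of the endoplasmic reticulum, had 16.7 and 98.9 CPM and 17.3 and 85.0 CPM. The lowest changes were those of Dnajb9, a co-chaperone, with 91.1 and 51.6 CPM in ΔleftPAL and 161 and 43.6 CPM in ΔIRIS cells, and of Herpud1, with 111 and 134 CPM and 208 and 121 CPM. Both had their highest level in resting ΔIRIS cells, as Irf4 did. Between the genotypes 0 of the 20 were 2-fold apart at rest or after LPS, and 14 had a ratio above 0 at rest (50.04% of all genes did) and 16 a ratio below 0 after LPS (44.7% of all genes).

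Of 16 genes that PAX5 activates, 13 of them not among the 10 factors, 1 was higher and 7 were lower after LPS in ΔleftPAL cells, and 1 and 8 in ΔIRIS cells. Without Bach2, Irf8 and Spib, 1 was higher and 6 were lower in ΔleftPAL cells, and 1 and 7 in ΔIRIS cells. The median log2 ratios of all 16 were -0.92 and -1.03, and without those factors -0.95 and -1.16, against -0.49 and -0.59 for Pax5 itself. Cr2, which encodes the complement receptor CD21, had 798 and 179 CPM in ΔleftPAL and 515 and 85.8 CPM in ΔIRIS cells, and was the gene of this list 2-fold lower in ΔIRIS cells after LPS. Cd55 had 300 and 43.4 CPM and 257 and 28.6 CPM, and Blnk, an adaptor of the B cell receptor, 211 and 258 CPM and 205 and 230 CPM. The germinal centre markers differed at rest, with a sum of 51.3 CPM in ΔleftPAL and 13.2 CPM in ΔIRIS cells, and all 6 were lower in ΔIRIS cells. Their part in the resting values of Bcl6, which was also lower in ΔIRIS cells, was not tested.

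Of 12 genes that BLIMP-1 represses, 1 was higher and 7 were lower after LPS in ΔleftPAL cells, and 2 and 4 in ΔIRIS cells. Without the members Pax5, Bcl6, Spib and Ets1, 1 of 8 was higher and 5 were lower in ΔleftPAL cells, and 2 and 2 in ΔIRIS cells. Fcer2a, which encodes CD23, had 258 and 71.8 CPM in ΔleftPAL and 281 and 53.9 CPM in ΔIRIS cells. Id3 had 32.6 and 45.7 CPM and 15.3 and 37.97 CPM, and was at least 2-fold lower in ΔIRIS cells at rest. Of 12 genes that BCL6 represses, 5 were higher and 3 lower after LPS in ΔleftPAL cells, and 4 and 3 in ΔIRIS cells. Prdm1 is 1 of the 12, and without it the counts were 4 and 3 in ΔleftPAL and 3 and 3 in ΔIRIS cells. Batf, an AP-1 factor, had 8.76 and 108 CPM and 8.26 and 117 CPM, and S1pr1, which lets lymphocytes leave tissue, 258 and 21.5 CPM and 292 and 22.3 CPM. Cd69, an early activation marker, had 145 and 46.1 CPM in ΔleftPAL and 211 and 33.1 CPM in ΔIRIS cells. Cdkn1a, a cell cycle inhibitor, was 8.32-fold higher in ΔIRIS cells at rest, from 99 against 10 reads.

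Of the 13 factors of the plasma cell side, 6 were higher and 3 lower after LPS in ΔleftPAL cells, and 5 and 2 in ΔIRIS cells, with Prdm1 and Xbp1 among those that were higher. Without Prdm1, Irf4 and Xbp1, the counts were 4 and 3 of 10 in ΔleftPAL cells and 3 and 2 in ΔIRIS cells. Zbtb32 had the highest change, from 1.72 to 162 CPM in ΔleftPAL and from 1.07 to 217 CPM in ΔIRIS cells, whereas Maf went from 18.1 to 0.408 CPM and from 37.2 to 0.205 CPM. At rest 3 of the 13 were at least 2-fold higher in ΔIRIS cells and 0 lower, against 1.83% and 1.02% of all genes. The 3 were Irf4, Maf and the stress factor Ddit3, the latter at 86.9 against 36.7 CPM. The part of other cell types, such as macrophages, in the values of Maf was not tested. Of 30 other B cell transcription factors 29 passed the minimum, and 3 were higher and 7 lower after LPS in ΔleftPAL cells, and 2 and 13 in ΔIRIS cells. Klf2, a quiescence factor, had 179 and 12.6 CPM in ΔleftPAL and 161 and 21.0 CPM in ΔIRIS cells, and Myb 13.7 and 40.5 CPM and 26.6 and 44.9 CPM. At rest 3 of the 29 were at least 2-fold higher in ΔIRIS cells, as Irf4 was, and 1 was lower, against 1.83% and 1.02% of all genes. The 3 were Rel, Egr1 and Nr4a1, which B cell receptor signals induce, at 168 against 79.5, 89.0 against 41.5 and 316 against 105 CPM. Id3 was the factor of this list lower at rest in ΔIRIS cells. After LPS 0 of the 29 were 2-fold apart, against 0.567% of all genes higher and 1.41% lower. The 5 dendritic markers past the minimum also had ratios above 0 at rest (50.04% of all genes did), and 2 of them were at least 2-fold higher. The part of dendritic cells, or of signalling before or during cell isolation, in the resting values of Irf4 was not tested.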

How the data were processed

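Total RNA of 4 libraries (1 per group) was analysed. Reads were mapped by the authors with STAR 2.4.0a to mm10 with the Ensembl 77 gene model and counted per gene name with featureCounts of Subread 1.4.6-p1. The counts were deposited without normalization. The authors also deposited kallisto 0.42.3 estimated counts and TPM per transcript (TPM sum to the same total in each library). Versions are those of the submitters' processing notes. The strand setting given by the authors (-s 1) is the opposite of that usual for this stranded kit, but gene counts of the 10 factors were 0.953 to 1.13 times the kallisto estimates.

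The row without a gene name (0.00876 to 0.0264% of reads) was left out. Counts were scaled with TMM factors of edgeR 4.0.16 in R 4.3.3. Log2 ratios used CPM, with 0.5 CPM added for counts of genes past 2-fold, over the genes whose mean reached 50 counts. Intervals are exact Clopper-Pearson (single ratios) and exact conditional odds-ratio intervals (differences of ratios), from scipy 1.17.1 in Python 3.11.15. With 1 library per group no spread within a group can be estimated. An additive model of genotype and LPS, which would take any difference between the genotypes in the response as error, was not run, and no p-value was computed. In data simulated for each of the 4 comparisons over 11286 genes, 200 of 200 genes changed 4-fold were recovered, and 0 unchanged genes were called. The simulated counts vary by sampling of reads alone and say nothing about spread between animals. A planted change of 4-fold lies well beyond the 2-fold mark, so this outcome was largely set in advance. The simulation covers no call near the mark, such as those of Bach2 on LPS or Irf4 at rest.

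The 10 genes and the gene lists were chosen with earlier results of these data known. Named genes are the 10 factors and, from each list, the 2 highest and 2 lowest changes on LPS and any gene 2-fold apart between genotypes. The result of 1 gene that this rule names is not reported here. Plasma cell and T cell markers named with values were chosen after their values were seen. For Prdm1, Irf8 and Pax5 the 5 genes of nearest pattern over the 4 libraries were taken. Gene positions are those of the authors' counting table, and transcript models those of GENCODE M21 on GRCm38. RefSeq gave the promoter windows, and no window of Ets1 was used here. Alternatives were other scalings (total counts, DESeq2 1.42.0 size factors, upper quartile, TMM without immunoglobulin genes), the kallisto tables, a prior of 5 CPM, other thresholds and other minimum counts.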

Additional observations from a re-analysis of the deposited data

Results flagged for a closer look

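The sign of the Irf4 change differed between the genotypes: Irf4 was higher after LPS in ΔleftPAL cells (log2 ratio 0.69) and lower in ΔIRIS cells (-0.62), a difference of -1.31. With 1 library per group, the difference was not tested against replicate spread. Under every scaling and table tried the ratio kept its sign in each genotype, between 0.48 and 0.84 in ΔleftPAL and between -0.87 and -0.45 in ΔIRIS cells.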

How the results depend on the processing

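No paired analysis was possible because the groups compared share 1 replicate number at most (1 library each), and no library was left out for the same reason. In TPM the median log2 ratio of all genes on LPS was -0.27 and -0.26, against 0.12 and 0.13 in the gene counts, so ratios in TPM lie lower. Counts of factors called on LPS stayed within 1.5 times the reported count in both genotypes under all scalings, tables, thresholds and minimum counts tried. Other thresholds took them to that limit. A 1.5-fold mark added Irf4 and Spib in both genotypes and Pax5 in ΔIRIS cells. A 3-fold mark left out Bach2 in both genotypes and Mitf in ΔleftPAL cells. Bach2, Mitf and Spib crossed the 2-fold mark under some scalings, tables or priors. Between genotypes, a threshold of 1.5-fold gave 2 factors at rest (Irf4 and Prdm1), against 11.0% of all genes, and 1 after LPS (Prdm1), against 6.46%, and a threshold of 3-fold gave 0 at rest, against 0.656%. Of 280 log2 ratios recomputed for single factors, 10 changed sign. The sign changes were those of Irf8 on LPS in ΔleftPAL cells (-0.089 with upper quartile factors and -0.19 in TPM) and in ΔIRIS cells (-0.11 in TPM), of Irf8 (0.030), Pax5 (0.0059) and Ets1 (0.039) between the LPS libraries with kallisto estimated counts, and in TPM between the genotypes of Bach2 (-0.33 at rest and -0.38 after LPS) and, at rest, of Pax5 (-0.076) and Mitf (-0.024), whose counting intervals in the gene counts include 0. For these the cause was not tested. Depth limits Mitf most, with 34 reads in each LPS library.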
